A study of Mus musculus with 4 samples.

Results

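Lymphatic endothelial cells of the mouse heart were described from 147 nuclei, selected on their own RNA from 34165 nuclei that passed the filters and 36648 barcodes in all. A nucleus was selected when it held at least 3 UMIs (unique molecular identifiers, 1 per captured RNA molecule) of Reln, Mmrn1, Prox1 and Ccl21a together, from at least 2 of these 4 genes. It also needed at least 1 UMI of Flt4, Pecam1, Cdh5 or Ptprb, and fewer than 0.5% of its UMIs from 6 cardiomyocyte genes (Ttn, Ryr2, Trdn, Ctnna3, Rbm20 and Tnnt2). The counts of these genes chose the nuclei, so their levels below are a description.

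The nuclei came from whole hearts of wild-type (WT) mice at postnatal day 12, in 4 libraries made with the 10x Genomics 3′ kit, 1 library per group. Control pups were given saline and YAP5SA pups a viral vector, which the labels call AAV9-YAP5SA and AAV-cTNT-YAP5SA, at postnatal day 7. For the next 5 days their mothers ate chow or high-fat food (HFD). YAP5SA is an active form of YAP, the transcriptional co-activator at the end of the Hippo pathway, and the cTnT promoter that drives it is active in cardiomyocytes. The virus and its cargo cannot be told apart here, because the control was saline and not an empty virus. Groups were taken from the sample titles. A second label, the treatment field, names HFD for the library titled YAP5SA on chow and chow for the library titled control on HFD. The split into saline and YAP5SA is the same in both labels, while every diet statement rests on the titles. If the treatment field holds, chow went with saline and HFD with YAP5SA throughout, and the vector comparison cannot be told apart from diet. The sources used here do not say how many hearts made up a library. Vector was compared as 2 libraries against 2, and these p-values measure only the spread between the libraries.

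Lymphatic vessels return tissue fluid and immune cells to the blood. Their endothelium is specified from veins by the transcription factor Prox1, grows in response to the ligand VEGF-C through the receptor VEGFR3 (encoded by Flt4), and draws dendritic cells in with the chemokine CCL21. In the heart the lymphatic network expands from the outer surface into the muscle around birth and in the first postnatal weeks.

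The selected nuclei numbered 21 and 30 in control and YAP5SA on chow, and 53 and 43 in control and YAP5SA on HFD. Values of the 4 libraries are given in that order throughout unless stated otherwise. Most held far more lymphatic RNA than the rule asked for. The median was 14 UMIs of the 4 genes per nucleus, and 68 nuclei had UMIs of all 4 genes, 54 of 3 and 25 of 2. Of the 147, 143 also had 2 or more UMIs of the endothelial genes. Near the threshold, 14 nuclei held 3 or 4 lymphatic UMIs, and 8 nuclei that met every other condition held 2 and stayed out. A further 106 nuclei had 3 or more lymphatic UMIs of 1 gene alone, and stayed out too. The libraries shared 11 to 34 barcodes pairwise, and no selected nucleus had its barcode selected in a second library.

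A few deep nuclei carried much of the RNA. The selected nuclei had a median of 3897 UMIs, with a range of 1705 to 74289. In YAP5SA on chow, 2 nuclei with over 10000 UMIs but fewer than 5 lymphatic UMIs held 52.1% of all UMIs of the class. Such nuclei held 13.7% of the UMIs in the control HFD library, 11.7% in the YAP5SA HFD library and 0% in control on chow. The 2 of YAP5SA on chow held 296 and 229 UMIs of fibroblast markers, against 3 lymphatic UMIs each. Those of the control HFD library held 189 and 27, and that of the YAP5SA HFD library 107, also against 3 lymphatic UMIs each. Whether these deep nuclei are lymphatic cells was not tested. In all, 51 of the 147 also met the blood vessel rule given below, 32 met a fibroblast rule (at least 5 UMIs from at least 3 fibroblast markers), 5 met the endocardial rule and 3 met a macrophage rule (at least 3 UMIs from at least 2 markers). The 14 nuclei with fewer than 5 lymphatic UMIs numbered 1, 8, 4 and 1 by library. The 8 in YAP5SA on chow held 59.4% of the class's UMIs in that library, so levels over all nuclei are low there for most lymphatic genes. For the leading genes, levels in the 133 nuclei with at least 5 lymphatic UMIs (20, 22, 49 and 42) are therefore given too.

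**Figure D1:**
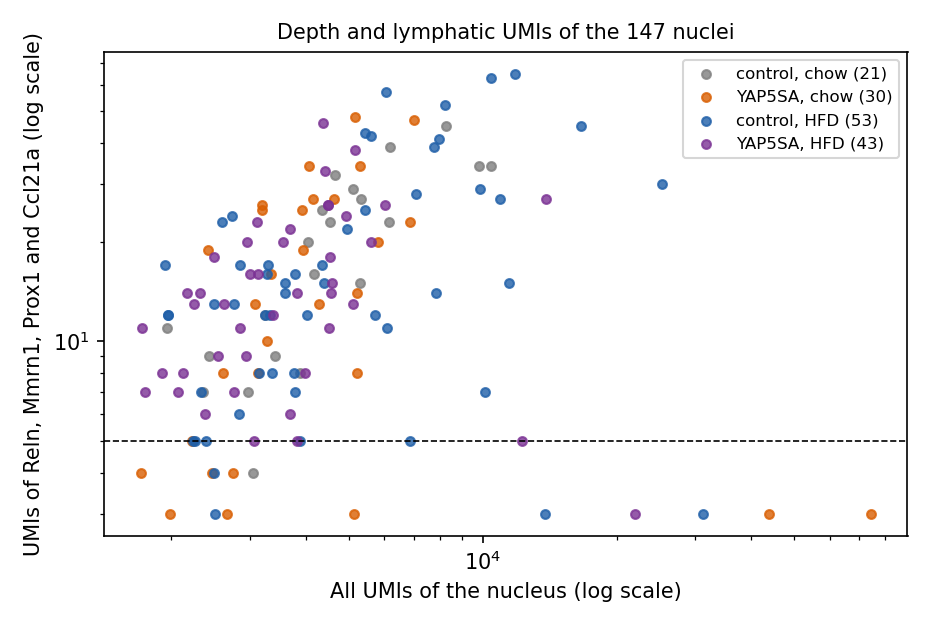
Each point is 1 of the 147 selected nuclei, with all its UMIs on the horizontal axis and its UMIs of Reln, Mmrn1, Prox1 and Ccl21a on the vertical axis, both on log scales and coloured by library; the dashed line marks 5 lymphatic UMIs. The points at the lower right are deep nuclei with 3 lymphatic UMIs and 27 to 296 UMIs of fibroblast markers. The deepest of them, at 74289 UMIs, is from YAP5SA on chow.

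Levels are given as CPM, the UMIs of a gene summed over the nuclei of a class in a library and scaled to 1000000 UMIs in all. They were set beside 2 reference classes built with the same kind of rule: 2586 blood vessel endothelial nuclei (Flt1, Btnl9, Cyyr1 and Kdr) and 1265 endocardial nuclei (Npr3, Nrg1, Smoc1 and Cytl1). Since RNA molecules of longer transcripts and pre-mRNA are caught more often in nuclei, levels are compared between classes for 1 gene and not between genes.

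Prox1 (chr1:190118035-190170714 on mm10, minus strand), the master regulator of lymphatic identity, had a UMI in 134 of the 147 nuclei. Its level was 1111 and 568 CPM in control and YAP5SA on chow, and 1218 and 1209 CPM in control and YAP5SA on HFD. The YAP5SA chow library was the lowest, and with at least 5 lymphatic UMIs it stood at 1293 CPM, within the range of the other libraries (1145 to 1419). Blood vessel nuclei held 20 to 48 CPM of Prox1, and cardiomyocytes, which also express it, 144 CPM over the 4 libraries.

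Reln (chr5:21884454-22344702, minus strand), a secreted glycoprotein that lymphatic endothelium passes to neighbouring cells, had 1288, 952, 885 and 1128 CPM in the same library order. Blood vessel nuclei had 1 to 10 CPM of Reln in the same libraries. Mmrn1 (chr6:60924976-60989378, plus strand), which encodes a large secreted multimerin, stood at 1219, 458, 641 and 738 CPM, against at most 3 CPM in any library of either reference class. In the nuclei with at least 5 lymphatic UMIs Reln stood at 2270 CPM in YAP5SA on chow, the highest of the libraries, and Mmrn1 at 1043 CPM, within their range. Of all genes at 50 CPM or more, Mmrn1 had the highest ratio of its pooled level to the higher of the 2 reference classes, at 558. Ccl21a (chr4:42772860-42773993, minus strand), the chemokine that guides dendritic cells and T cells carrying CCR7, had 600, 207, 388 and 492 CPM and was seen in 93 of the 147 nuclei. In the 133 nuclei it had 618, 489, 454 and 557 CPM. Near-identical copies of Ccl21a exist in the mouse genome, so its count is uncertain. The files list Ccl21b at 0 in every library of the class.

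Flt4 (chr11:49609263-49652739, plus strand), the VEGF-C receptor, was part of the endothelial condition of the rule and had 924, 282, 540 and 524 CPM, against 26 to 30 CPM in blood vessel nuclei. The pan-endothelial genes of the rule were lower than in blood vessels: Pecam1 pooled to 455 against 646 CPM, Cdh5 to 227 against 348 CPM, and Ptprb to 523 against 866 CPM.

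Lymphatic genes that took no part in the selection were high in the same nuclei. Lyve1, the hyaluronan receptor of lymphatic capillaries, had 226, 216, 241 and 455 CPM, and 233, 456, 285 and 515 CPM with at least 5 lymphatic UMIs. In blood vessel nuclei it had 1 to 18 CPM, and in macrophages, some of which express it, 84.9 CPM. Nuclei with a Lyve1 UMI made up 8 of 21, 20 of 30, 24 of 53 and 22 of 43, and 0.811% to 6.64% of blood vessel nuclei. Pdpn, the membrane mucin podoplanin, pooled to 97.2 CPM against 11.1 CPM in blood vessels and 50.7 CPM in fibroblasts.

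The partners of VEGF-C signalling were divided between the classes. Nrp2, the co-receptor that binds VEGF-C, stood at 2389, 996, 1446 and 1706 CPM (2433, 1912, 1678 and 1878 CPM with at least 5 lymphatic UMIs), above its 481 to 910 CPM in blood vessels in every library. Itga9, the integrin subunit needed for lymphatic valves, pooled to 694 against 262 CPM. Kdr, the VEGFR2 gene, pooled to 270 CPM against 291 in blood vessels, a class chosen partly on it. The ligand Vegfc had 332 to 544 CPM by library in blood vessel nuclei and 142 to 199 CPM in fibroblasts, whereas 11 of the 147 lymphatic nuclei had a UMI of it. Ccbe1, which helps to activate VEGF-C, was highest in fibroblasts, at 102 CPM.

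Transcription factors of lymphatic fate differed in level from those of blood vessels to varying extents. Tbx1, a T-box factor required for lymphatic growth, had 128, 39.7, 91.5 and 118 CPM and at most 2 CPM in any library of the reference classes. Over the 133 nuclei Tbx1 had 97.8 to 133 CPM. Nfatc1, which acts with Prox1 and Foxc2 in valve formation, pooled to 345 CPM against 91.8 in blood vessels, and Maf to 313 against 63.3 CPM. Nr2f2, the venous factor that cooperates with Prox1, pooled to 295 against 148 CPM. Sox18, which starts Prox1 expression in the embryo, was similar in both at 60.5 and 48.9 CPM. Hlx was not detected in any of the 147 nuclei (0 UMIs).

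Valve and junction genes ranged from rare to common in the nuclei. Foxc2, a regulator of valves, had a UMI in 17 of 147 nuclei, and the claudin gene Cldn11 in 13. Celsr1, a planar polarity receptor of valve cells, was wider, with 54 nuclei and 94.9 CPM against 4.53 in blood vessels. Piezo2, a mechanically gated channel, was seen in 96 nuclei and had 983, 427, 565 and 920 CPM, with 793 CPM in YAP5SA on chow at 5 or more lymphatic UMIs. The tight junction gene Cldn5 pooled to 202 CPM against 72.5 in blood vessels.

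Guidance genes were mixed. Of 27 listed, which include Reln, 15 had a higher pooled level than in both reference classes and 9 a lower one than in blood vessels. Ntn1, the secreted netrin, pooled to 617 CPM, against 163 in blood vessels and 208 in the endocardium. Sema3d, a repulsive semaphorin, pooled to 488 CPM against 122 and 47.9 CPM. The polarity gene Pard6g pooled to 394 against 23.5 and 26.6 CPM.

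By ratio to the higher reference class, the 15 leading genes at 50 CPM or more were Mmrn1, Ccl21a, Apba2, Tbx1, Reln, Gm16685, Tc2n, Il7, Scn3a, Dtx1, Hoxd3os1, Nrcam, Hoxd4, Sgsm1 and Sh3gl3. This is a description, since the nuclei were chosen for genes of their own. Apba2, an adaptor of membrane trafficking, had 236, 163, 174 and 176 CPM, and Tc2n, a C2-domain gene, had 521, 352, 433 and 449 CPM. Neither gene passed 10 CPM in the pooled reference classes. Restricted to at least 5 lymphatic UMIs, they stood in YAP5SA on chow at 402 and 837 CPM, the highest of the libraries. Il7, the lymphocyte survival cytokine, had 177, 57.3, 73.2 and 102 CPM (141 CPM in YAP5SA on chow with at least 5 lymphatic UMIs), was seen in 50 nuclei, and stood at 1.51 CPM in blood vessels. Scn3a, a voltage-gated sodium channel, had 324, 220, 183 and 524 CPM (335, 500, 216 and 588 CPM with at least 5 lymphatic UMIs) against 2 to 7 CPM in blood vessels.

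**Figure D2:**
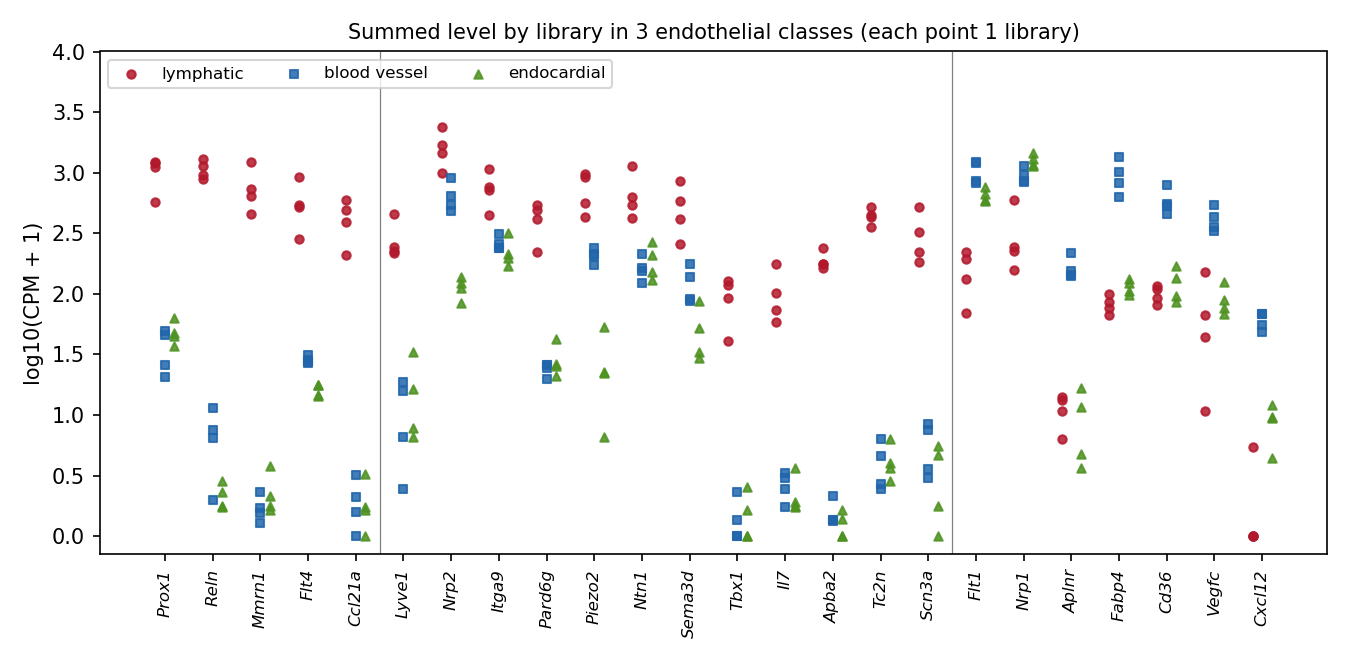
Each point is the summed level of a gene in 1 library, as log10(CPM + 1), for lymphatic (circles), blood vessel (squares) and endocardial (triangles) nuclei. The 5 genes on the left belong to the selection rule, the middle group lay above the blood vessel class in the lymphatic nuclei, and the group on the right lay below it. In the group on the right, Flt1 is a gene on which the blood vessel class was partly chosen.

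Capillary genes of the blood vessels were low. Fabp4, the fatty acid carrier of heart capillaries, had 98.3, 66.1, 85.4 and 74.9 CPM, against 634 to 1338 CPM in blood vessels. Cd36, the fatty acid transporter, had 80.2 to 115 CPM against 456 to 794. Gpihbp1, which holds lipoprotein lipase on capillaries, pooled to 27.3 against 101 CPM. Pparg, the lipid-sensing nuclear receptor, went the other way, with 164 CPM pooled against 88.0. The apelin receptor gene Aplnr pooled to 10.7 against 160 CPM, and the chemokine gene Cxcl12 had 1 UMI in all 147 nuclei. Nrp1 pooled to 315 against 943 CPM. Flt1, the decoy receptor for VEGF-A, pooled to 172 against 1000 CPM in blood vessels, a class chosen partly on it.

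Markers of other cell types were present, and their part in the results was not tested. The 14 cardiomyocyte markers summed to 2369, 3736, 1868 and 2519 CPM, higher in YAP5SA than in control on each diet. Over the 133 nuclei the cardiomyocyte sums were 2351, 1477, 1790 and 2544 CPM. Gene by gene, the markers did not all move with the sums. For YAP5SA against control, 8 of the 11 tested lay above 0 over all nuclei, with a median log2 fold change of 0.38. In the 133 nuclei 3 of the 8 tested lay above 0 and 5 below, with a median of -0.98. The 10 fibroblast markers summed to 629, 2626, 1572 and 1455 CPM in the 4 libraries and to 628, 695, 1055 and 1000 CPM in nuclei with at least 5 lymphatic UMIs. The 12 macrophage markers summed to 275 to 781 CPM, with Cd163 at 0 in every library. The 10 lymphocyte markers summed to 0, 39.7, 39.7 and 58.8 CPM, with Cd3e, Cd3g, Themis and Ms4a1 at 0 in every library. The 6 smooth muscle markers summed to 246, 220, 253 and 160 CPM, with Cnn1 at 0 in every library. The 8 pericyte markers summed to 364 to 595 CPM. The 10 endocardial markers summed to 3589, 1331, 3262 and 2262 CPM. Hmcn1, which was expressed widely, gave 612 to 1475 CPM of these sums. The libraries differed in sex-linked RNA. Xist had a UMI in 0 of 30 lymphatic nuclei of YAP5SA on chow, where the Y-linked gene Ddx3y was seen in 11. In the other 3 libraries Xist had a UMI in 115 of 117 nuclei and Ddx3y in 0. By these genes, sex differed between the 2 YAP5SA libraries and between the 2 chow libraries. Its part in the vector, diet and class comparisons was not tested.

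Within the class, nuclei with and without a Lyve1 UMI differed in depth, with medians of 4374 and 3565 UMIs, so their shares are given as a description. Piezo2 had a UMI in 60 of the 74 nuclei with Lyve1 and in 36 of the 73 without. Pdpn was seen in 32 of 74 and 11 of 73, and Ccl21a in 54 of 74 and 39 of 73. Against the direction of depth, Foxp2, a forkhead factor reported in collecting lymphatic vessels, was seen in 29 of 74 nuclei with Lyve1 and 50 of 73 without. Foxp2 was also high in fibroblasts, at 673 CPM. Cldn11 and Foxc2 were seen in 3 and 6 of the nuclei with Lyve1 and in 10 and 11 of those without.

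The share of lymphatic nuclei was next compared between the groups. They formed 0.330% of nuclei in control on chow (21 of 6373, 95% exact Clopper-Pearson interval 0.204% to 0.503%) and 0.346% in YAP5SA on chow (30 of 8669, 0.234% to 0.494%). On HFD they formed 0.631% in control (53 of 8397, 0.473% to 0.825%) and 0.401% in YAP5SA (43 of 10726, 0.290% to 0.540%). The intervals cover counting error only. The control HFD library was the highest, and the control and YAP5SA libraries overlapped. The mean of the 2 YAP5SA libraries was 0.373% and that of the 2 control libraries 0.480%, with an exact permutation p of 1 (two-sided; 2 libraries against 2 cannot go below 0.333).

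Within endothelium the shares were closer. Lymphatic nuclei were 3.08%, 3.15%, 4.02% and 4.12% of the 3 endothelial classes in the same order, and the 4 intervals overlapped. A share depends on how many nuclei of every other type were caught, so fewer lymphatic cells and more of other cells cannot be told apart.

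**Figure D3:**
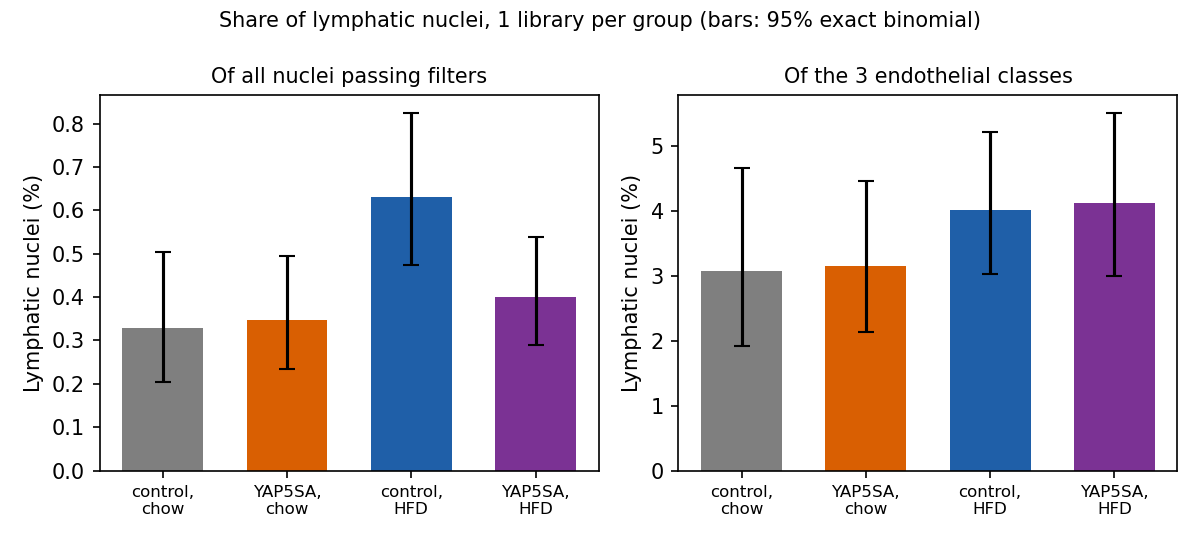
Bars give the share of lymphatic nuclei in percent in each library, of all nuclei that passed the filters (left) and of the lymphatic, blood vessel and endocardial nuclei (right), with 95% exact binomial intervals. On the left the control HFD library stands highest at 0.631%, and on the right the libraries lie between 3.08% and 4.12%.

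Nuclei with RNA of the proliferation genes Mki67 or Top2a were found in all 4 libraries. They were 2 of 21, 7 of 30, 12 of 53 and 10 of 43 lymphatic nuclei, or 9.52%, 23.3%, 22.6% and 23.3%. After each nucleus was thinned to 2000 UMIs the shares were 10%, 14.3%, 16% and 20%. Blood vessel nuclei had 18.3% to 23.3% before thinning and endocardial nuclei 9.52% to 16.6%. The exact binomial interval of the lowest lymphatic share before thinning was 1.17% to 30.4%, and the shares of the other libraries lay within it. It covers counting error among nuclei only and not the spread between libraries. A difference in these shares was not tested.

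YAP5SA and control hearts were compared gene by gene in the summed counts of lymphatic nuclei (edgeR quasi-likelihood test, 2 libraries against 2, Benjamini-Hochberg adjustment over all genes tested). The sums were small, at 101712, 226960, 327706 and 186975 UMIs. Of 4817 genes tested, 1 rose and 1 fell, which is 0.0415%, and 349 had an unadjusted p under 0.05. Of the 37 further lymphatic, metabolic and Hippo genes chosen for description, 28 could be tested and none passed. Where 0.0415% of all genes did, this says little about them. The rates of mitochondrial UMIs moved with the vector in the same nuclei, with medians of 2.49% and 1.06% in the controls and 0.708% and 0.325% in YAP5SA on chow and HFD; their part in the result was not tested.

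The gene that fell was Tmem108 (chr9:103482947-103761837, minus strand), a membrane protein gene. It had 442 and 479 CPM in the 2 control libraries and 61.7 and 74.9 CPM in the YAP5SA libraries, a log2 fold change of -2.79 ± 0.34 (SE; adjusted p = 0.0296). Tmem108 was a strong endocardial gene, at 2043 to 3578 CPM in those nuclei. Among lymphatic nuclei it came from few: 32 of 45 UMIs in control on chow lay in 1 nucleus, and all 14 in YAP5SA on HFD lay in 1. With at least 5 lymphatic UMIs the gene had 456 and 281 CPM in control and 130 and 84.5 CPM in YAP5SA, and it was no longer called. Across the alternatives, its adjusted p ranged from 1.33e-08 to 0.677.

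The gene that rose was 8030451A03Rik, a long noncoding transcript (chr4:63979854-64149924, plus strand). It had 29.5 and 12.2 CPM in control and 789 and 283 CPM in YAP5SA, a log2 fold change of 4.91 ± 0.64 (adjusted p = 0.0304). It overlaps the matrix gene Tnc on the opposite strand (chr4:63959785-64047015). Whether reads of Tnc were counted for it was not tested. In YAP5SA on chow 114 of its 179 UMIs lay in 1 nucleus. With diet as a term the call was lost (adjusted p = 0.138), as it was with cardiomyocyte genes under 0.25% and without nuclei of the endocardial rule. Fibroblast nuclei showed 85.5 and 106 CPM of it in control and 1239 and 920 CPM in YAP5SA. Restricted to at least 5 lymphatic UMIs, it stood at 30.3 and 10.8 CPM in control and 65.2 and 145 CPM in YAP5SA.

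The genes next by p did not pass (adjusted p 0.101 to 0.151). Sorbs2os, Gm26827, D630003M21Rik, Gm43948 and Dnm3os had higher values in YAP5SA, and Npr3 and Nrg1 had lower ones. Npr3 and Nrg1 are the endocardial genes used to define that class. Npr3 had 41 and 37 UMIs in control and 4 and 3 in YAP5SA, and 21 of the 41 in control on chow lay in 1 nucleus. Without the 5 nuclei that also met the endocardial rule, no gene passed in either direction.

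The lymphatic genes themselves gave no call. Of the 25 other lymphatic genes listed, 20 were tested and none passed. Beside 0.0415% of all genes, this count of 0 says little about them. Their median log2 fold change was -0.45, where that of all genes tested was 0.003. With at least 5 lymphatic UMIs the same list had a median of 0.04, and 11 of 20 lay above 0. Sema3d had a log2 fold change of -1.12 ± 0.34, which did not pass (adjusted p = 0.396). Among nuclei with at least 5 lymphatic UMIs, Sema3d had 780 and 630 CPM in control against 532 and 448 CPM in YAP5SA. Angpt2, the angiopoietin that lymphatic growth requires, had 68.8 and 48.8 CPM in control and 132 and 412 CPM in YAP5SA. Only 6 nuclei of YAP5SA on chow had a UMI of it.

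The best-known YAP target genes gave no call. Ccn2, a matricellular gene bound by YAP and TEAD, had 9.83 and 36.6 CPM in control and 137 and 96.3 CPM in YAP5SA, a log2 fold change of 1.98 ± 0.54 (adjusted p = 0.312). Ccn1, its relative, had 0 and 4 UMIs in control and 36 and 7 in YAP5SA. Both genes are given over all 147 nuclei. In YAP5SA on chow, 2 deep nuclei rich in fibroblast markers held 52.1% of all UMIs of the class, and their part in these values was not tested. Of 24 YAP target genes listed, 10 were tested and none passed, beside 0.0415% of all genes, so the count of 0 says little about them. Their median log2 fold change was 0.31, and 0.04 with at least 5 lymphatic UMIs. An unadjusted p under 0.05 was reached by 4 of the 10, beside 7.25% of all genes, and by 2 of 8 with at least 5 lymphatic UMIs, beside 5.52%. Blood vessel nuclei had 13.4 and 23.2 CPM of Ccn2 in control and 165 and 79.6 CPM in YAP5SA. Ccn2 was also higher in cardiomyocytes of YAP5SA hearts, at 278 and 132 CPM against 32.0 and 37.4. In fibroblasts it had 340 and 199 CPM against 37.0 and 39.7. RNA released from cardiomyocytes or fibroblasts was not tested as a source. Yap1 itself had 98.3 and 85.4 CPM in control and 88.1 and 150 in YAP5SA.

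Whether lymphatic endothelium responded differently from blood vessel endothelium was tested in 1 fit of both classes, with the library as a block and an interaction of class and vector. Of 12638 genes tested, 22 had a higher and 36 a lower response in lymphatic nuclei, together 0.459%. In blood vessel nuclei alone, 259 of 13586 genes passed for the vector, or 1.91%. Many of the called genes were highest in another class. Of the 36 lower genes, 22 had their highest pooled level in endocardial nuclei, and of the 22 higher genes, 11 had it in fibroblasts. None of the 37 lymphatic, metabolic and Hippo genes was among the 58. With at least 5 lymphatic UMIs 20 of the 58 were still called. With that limit and also without nuclei that met the fibroblast, endocardial or macrophage rule (mixed nuclei), 8 were. The latter set of 104 nuclei still held 33 that met the blood vessel rule. These 8 were Cdh11, Igfbp5, Rasgef1b, Tmem108, Pcsk6, Scn3a, Csmd3 and Rspo2. Both restrictions were applied to the lymphatic nuclei only, so they could not change the blood vessel side of the difference. They, and the choice of these 8, were made after their values were seen.

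Cdh11 (chr8:102632095-102785642, minus strand), a cadherin of mesenchymal cells, rose in blood vessel nuclei from 265 and 326 CPM in control to 898 and 969 CPM in YAP5SA, on chow and HFD (log2 fold change 1.60 ± 0.15, adjusted p = 0.00529). In lymphatic nuclei it had 364 and 372 CPM in control and 119 and 150 CPM in YAP5SA. The difference in response was -3.11 ± 0.36 on the log2 scale (adjusted p = 1.14e-11), and it was called in all 11 settings, the fit and its 10 alternatives. The lower level within lymphatic nuclei did not pass alone (adjusted p = 0.158). Cdh11 was highest in endocardial nuclei, at 1657 to 2264 CPM. In blood vessel nuclei the endocardial class gene Smoc1 had 22.5 and 33.0 CPM in control and 82.0 and 98.0 CPM in YAP5SA. Npr3 had 77.7 and 92.2 CPM in control and 108 and 128 CPM in YAP5SA, while the values of Nrg1 overlapped. The part of endocardial RNA in the blood vessel values of Cdh11, Rasgef1b and Tmem108 was not tested.

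Igfbp5 (chr1:72857932-72874884, minus strand), a secreted binding protein of insulin-like growth factors, rose in blood vessel nuclei from 355 and 396 CPM to 1214 and 1121 CPM (log2 fold change 1.58 ± 0.15, adjusted p = 0.00529). Lymphatic nuclei had 226 and 638 CPM in control and 247 and 487 CPM in YAP5SA, so their values overlapped. The difference was -1.90 ± 0.35 (adjusted p = 1.65e-04), called in 9 of 11 settings. In the control HFD library 81 of the 209 UMIs of Igfbp5 lay in 1 lymphatic nucleus.

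Rasgef1b (chr5:99217426-99729065, minus strand), an exchange factor for Ras-like GTPases, rose in blood vessel nuclei from 142 and 140 CPM to 388 and 385 CPM (log2 fold change 1.40 ± 0.13, adjusted p = 0.00529). Lymphatic nuclei had 167 and 357 CPM in control and 70.5 and 26.7 CPM in YAP5SA. Within lymphatic nuclei alone this did not pass (adjusted p = 0.158). The difference in response was -3.92 ± 0.44 (adjusted p = 4.95e-12), called in all 11 settings. Tmem108, described above, gave -3.70 ± 0.38 (adjusted p = 5.95e-14), also in all 11, while the change in blood vessel nuclei alone did not pass (adjusted p = 0.06). Both are endocardial genes by level.

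Pcsk6 (chr7:65861734-66050386, plus strand), a proprotein convertase that processes growth factors, fell in blood vessel nuclei from 159 and 224 CPM to 59.8 and 48.5 CPM (log2 fold change -1.88 ± 0.20, adjusted p = 0.0058). Lymphatic nuclei held more of it in every library, with 905 and 488 CPM in control and 445 and 583 CPM in YAP5SA. With at least 5 lymphatic UMIs these were 922 and 537 in control and 967 and 648 CPM in YAP5SA, higher in YAP5SA on both diets by less than the control libraries differed. The difference in response was 1.46 ± 0.35 (adjusted p = 0.0138), called in 9 of 11 settings. Fibroblasts had 577 and 604 CPM in control and 81.9 and 152 CPM in YAP5SA, the endocardium 57.5 and 74.4 CPM against 6.88 and 12.6, and cardiomyocytes 26.8 and 40.3 CPM against 5.96 and 9.73. Pcsk6 in blood vessel nuclei thus moved with fibroblast Pcsk6, whose part in it was not tested.

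Csmd3, a large membrane protein gene (chr15:47580637-48792063, minus strand), had 29.5 and 58.0 CPM in lymphatic nuclei of control hearts and 137 and 193 CPM in YAP5SA, against 11.6 and 9.93 CPM and 2.88 and 3.68 CPM in blood vessels. The difference was 3.39 ± 0.65 (adjusted p = 5.7e-04), called in all 11 settings, though its 89 lymphatic UMIs lay in 21 nuclei. Scn3a gave 2.16 ± 0.56 (adjusted p = 0.0369), called in 7 of 11 settings, with 324 and 183 CPM in control and 220 and 524 CPM in YAP5SA, which overlap. All 29 UMIs of Rspo2 in YAP5SA on HFD lay in 1 nucleus, and blood vessel nuclei of both YAP5SA libraries had 0, so no fold is given.

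**Figure D4:**
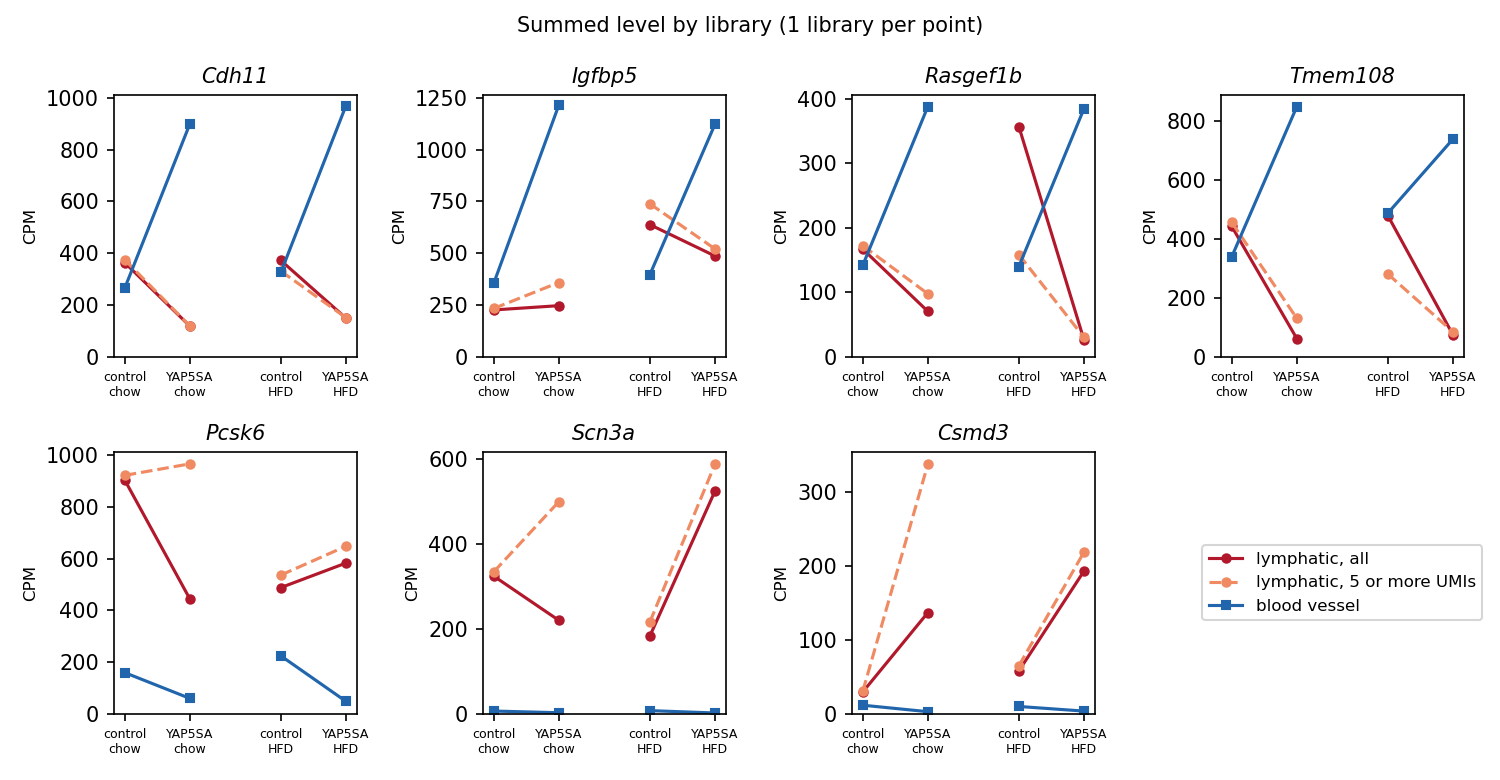
Lines join control and YAP5SA on the same diet, in CPM from 0, for all lymphatic nuclei (solid, circles), those with at least 5 lymphatic UMIs (dashed) and blood vessel nuclei (squares), with 1 library per point. Cdh11, Rasgef1b and Tmem108 are lower with YAP5SA in lymphatic and higher in blood vessel nuclei on both diets, though of these 6 changes only Cdh11 and Rasgef1b in blood vessel nuclei and Tmem108 in lymphatic nuclei passed alone, and Pcsk6 falls in blood vessel nuclei, from 159 to 59.8 CPM on chow.

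Diet, taken from the titles, gave no call when vector was a term of the fit (edgeR quasi-likelihood test). Of 4817 genes tested, 0 passed (0%), 128 had an unadjusted p under 0.05, and DESeq2 also called 0. The 10 genes of smallest p, none passing, were Gm47271, Tnc, Ptprt, Neo1, Itgbl1, Mctp1, Trdn, Ankrd1, Rps29 and Prc1. Neo1, a receptor for netrins and repulsive guidance molecules, had 19.7 and 115 CPM on chow and 366 and 396 CPM on HFD. In control on HFD 95 of its 120 UMIs came from 1 nucleus. Gm47271 (chr9:58979251-59033856, plus strand) lies within Neo1 (chr9:58874687-59036441, minus strand), on the opposite strand. Whether reads of Neo1 were counted for Gm47271 was not tested.

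With at least 5 lymphatic UMIs, 10 genes rose and 4 fell on HFD, and with that limit and without mixed nuclei 2 rose. Neo1 was among the former, with 20.3 and 54.3 CPM on chow and 411 and 448 CPM on HFD in those nuclei. Lymphatic genes gave no call for diet. Of the 25 other lymphatic genes 20 were tested and none passed, where 0 of all 4817 genes did. Their median log2 fold change was 0.19, beside 0.03 over all genes and -0.10 for the list with at least 5 lymphatic UMIs. Fatty acid genes were sparse, with 11 of 33 tested, 0 passing and a median of -0.14. Oxct1, the enzyme that commits ketone bodies to oxidation, had 39.3, 123, 51.9 and 37.4 CPM in the 4 libraries, and Bdh1, another ketone enzyme, had 1 UMI in all 147 nuclei.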

How the data were processed

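Single-nucleus libraries were counted with Cell Ranger 7.1.0 on mm10, per the submitters' processing notes, and the authors deposited filtered matrices of raw counts (UMIs) for 32291 features. Gene coordinates came from GENCODE vM21, which holds 32158 of the feature IDs. Nuclei with at least 500 genes and at most 5% mitochondrial UMIs were kept. The nuclei, gene lists and tests were chosen with earlier results of these data known. Reference nuclei needed at least 3 UMIs from at least 2 class genes, 1 endothelial UMI and under 0.5% cardiomyocyte UMIs. Doublets called with Scrublet (scanpy 1.11.5) numbered 2 among the lymphatic nuclei and were removed only as an alternative. Counts were summed per library and class and tested with edgeR 4.0.16 (TMM, filterByExpr, quasi-likelihood), with DESeq2 1.42.0 as an alternative, and adjusted p under 0.05 was called. The fits were tested on simulated counts. Where under 5 genes passed, the 10 of smallest p were named; otherwise up to 10 per direction with at least 20 counts, by fold change. Some genes are not reported here. The labels give no replicate numbers. Droplet RNA released from other cells was not removed.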

Additional observations from a re-analysis of the deposited data

Results flagged for a closer look

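The share of lymphatic nuclei, as YAP5SA over control, was 1.05 on chow and 0.635 on HFD by title. The opposite directions did not hold throughout. The chow ratio was 0.809 with at least 5 lymphatic UMIs, 0.757 after thinning and 0.98 with cardiomyocyte genes under 0.25%, and of the 3 endothelial classes the ratios were 1.02 and 1.03. With 1 library per group the difference was not tested.

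The response to YAP5SA differed between lymphatic and blood vessel endothelial nuclei for the 20 genes named by size, by the interaction test of edgeR. They are 10 genes in each direction, and Npr3, Nrg1 and Smoc1 among them were used to define the endocardial class. A stricter set needed at least 5 lymphatic UMIs and left out nuclei that also met the fibroblast, endocardial or macrophage rule. There Rasgef1b, Tmem108, Csmd3 and Rspo2 were still called and the other 16 were not. The higher responses were Gfpt2 (log2 3.84), Lpar1 (3.73), Csmd3 (3.39), Meg3 (3.10), Col6a6 (2.94) and Mid1 (2.37). In YAP5SA on chow 348 of the 399 UMIs of Mid1, 30 of the 41 of Lpar1 and 80 of the 136 of Meg3 lay in 1 nucleus, and Gfpt2, Lpar1, Meg3, Col6a6 and Mid1 were not called with at least 5 lymphatic UMIs.

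The lower responses were Npr3 (log2 -4.08), Nrg1 (-4.04), Rasgef1b (-3.92), Tmem108 (-3.70), Dusp2 (-3.67) and mt-Nd6 (-3.65). Dusp2, a phosphatase of MAP kinases, was higher in lymphatic than in blood vessel nuclei, at 52.2 against 4.95 CPM pooled. The mitochondrial gene mt-Nd6 had 197 and 94.6 CPM in control and 26.4 and 5.35 CPM in YAP5SA lymphatic nuclei, where the median share of mitochondrial UMIs was also lower.

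For 8 genes an arm held 3 or fewer UMIs, so only the adjusted p of the difference is given. These were Rspo2 (1.3e-04), Rerg (0.00728), Unc45b (0.0401) and Gm15991 (0.0155), with higher responses in lymphatic nuclei, and Sall1 (0.0109), Zfp780b (0.0414), Smoc1 (0.00728) and Bace2 (0.0211), with lower ones. Rerg, a Ras-like growth inhibitor, had 0 and 1 UMIs in control and 14 and 12 in YAP5SA lymphatic nuclei.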

How the results depend on the processing

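Shares kept within the main counting interval except with at most 1% mitochondrial UMIs (0.152%, 0.223% and 0.391% in control on chow, YAP5SA on chow and control on HFD) and, for control on HFD, after thinning (0.466%). YAP5SA over control was 0.778 as the mean of 2 libraries, and 1.04 with the mitochondrial limit and 1.02 of the 3 endothelial classes. For YAP5SA against control, where 1 gene rose and 1 fell, 65 rose and 36 fell without the filter on low counts and 3 and 9 with DESeq2. None rose or fell (0) with at least 5 lymphatic UMIs, with cardiomyocyte genes under 0.25%, with diet as a term, without endocardial-rule nuclei or without mixed nuclei. Leaving out 1 library gave 15 to 33 that rose and 7 to 18 that fell. For diet, 8 rose and 7 fell without the filter, 10 and 4 with at least 5 lymphatic UMIs, 23 and 6 with the stricter cardiomyocyte limit, and 2 rose without mixed nuclei. For the difference between classes, with 22 and 36 called, 10 and 20 were called with at least 5 lymphatic UMIs, 9 and 11 without mixed nuclei, and 90 rose without endocardial-rule nuclei, where Smoc1 reversed to 3.68. Leaving out 1 library gave 8 to 46 higher and 12 to 43 lower; the lowest counts, 8 and 12, were without YAP5SA on chow. The set without mixed nuclei also needed at least 5 lymphatic UMIs. The causes were not tested. Removal of endocardial-rule or mixed nuclei, and for the difference also the 5-UMI limit and leaving out a library, were chosen after seeing the data. For the difference, these removals and the 5-UMI limit left the blood vessel nuclei unchanged. Diet with 1 library left out has no residual degrees of freedom and gave no value. No paired analysis was possible because the labels give no replicate numbers; the fit with diet as a term is the block by titled diet. With 147 nuclei, genes at low counts could not be tested.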
